A study of Mus musculus with 3 samples.

Results

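The Usp-named genes described here are the mouse genes whose symbol begins with Usp and a digit, 58 of the 32545 genes listed in the deposited expression table. They were taken by symbol alone, without pseudogenes and genes with an antisense suffix, so no measured value chose them. 5 of them, Usp17la, Usp17lb, Usp17lc, Usp17ld and Usp17le, are the targets of the knockdown, and the other 53 were not targeted. 55 of the 58 code for a Usp protein. Usp6nl, whose symbol begins in the same way, is known as a Rab GTPase-activating protein, and Usp46os1 and Usp46os2 are transcripts on the strand opposite Usp46.

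KD4 and KD9 are stable Usp17l knockdown lines of E3, a mouse embryonic stem cell (ESC) line from C57BL/6 × 129S6 blastocysts. The study designed a pair of short hairpin RNAs (shRNAs) in sequence common to the Usp17l genes and introduced them on the pSIREN plasmid under puromycin selection, and each line is 1 clone. The control is E3 with the empty vector. All 3 lines were at passage 7 and were cultured with LIF and serum on feeder layers of mouse embryonic fibroblasts, so each RNA sample could hold feeder RNA. GEO labels 1 sample for each line, while the table gives 2 columns for KD4, 2 for KD9 and 1 for the labelled control. The mean of both columns stands for a knockdown line as 1 replicate, and every fold change is taken over the same control column.

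Ubiquitin-specific proteases (USPs) are cysteine proteases that remove ubiquitin from proteins and so oppose ubiquitin ligases. They form the largest family of deubiquitinases and act on histones, on p53 and its ligase Mdm2, on receptors in endosomes and on free ubiquitin chains. In ESCs, several of them act on ubiquitinated histone H2A and H2B, which mark silent developmental genes and transcribed genes. The Usp17l genes, also called Dub genes, were first described in mouse blood cells as genes induced by cytokines, and in the embryo they are transcribed around the 2-cell stage.

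The Usp17l genes are close copies of each other on chromosome 7. In GENCODE M21 (build GRCm38), Usp17ld lies at chr7:103249737-103252505 on the minus strand and Usp17lc at chr7:103415072-103419880 on the plus strand. Farther along are Usp17le at chr7:104768049-104777470 (minus), Usp17lb at chr7:104840257-104842603 (minus) and Usp17la at chr7:104857009-104862667 (plus). Their coding sequences were 90.7% to 98.4% identical over aligned bases, with Usp17lc and Usp17ld the closest pair. All 5 shared 14 runs of at least 20 identical bases, which made up 28.2% of the 1626 coding bases of Usp17le. The longest run, of 63 bases, is shown because the shRNAs were designed in such common sequence. Capitals mark the run shared by all 5, and the lower-case bases are its flanks in each gene, all within coding sequence.
Usp17la, chr7:104860580-104860672 (plus): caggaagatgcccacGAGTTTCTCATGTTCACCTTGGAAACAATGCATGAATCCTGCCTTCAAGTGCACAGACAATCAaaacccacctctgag
Usp17lb, chr7:104841236-104841328 (minus): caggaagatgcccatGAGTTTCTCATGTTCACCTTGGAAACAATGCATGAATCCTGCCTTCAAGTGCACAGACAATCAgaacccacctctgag
Usp17lc, chr7:103417890-103417982 (plus): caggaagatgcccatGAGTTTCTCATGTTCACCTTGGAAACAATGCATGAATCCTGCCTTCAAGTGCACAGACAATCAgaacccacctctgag
Usp17ld, chr7:103251241-103251333 (minus): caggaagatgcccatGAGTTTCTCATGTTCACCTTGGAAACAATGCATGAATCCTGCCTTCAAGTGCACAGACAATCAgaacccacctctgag
Usp17le, chr7:104769349-104769441 (minus): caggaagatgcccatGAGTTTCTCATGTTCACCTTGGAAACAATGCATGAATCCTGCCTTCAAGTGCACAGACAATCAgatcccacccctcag

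Because the authors counted uniquely mapped reads, such copies can lose reads. Of the windows of 100 bases along the annotated exons, the share found in no other transcript of the annotation was 96.2% for Usp17la, 91.8% for Usp17le, 89.7% for Usp17lb, 67.7% for Usp17lc and 60.5% for Usp17ld. The other Usp-named genes were mostly unique throughout, with 8 of them under 90% and Usp49 the lowest at 52.5%. Among the 5 Usp17l genes, the levels of Usp17lc and Usp17ld are therefore the least certain, in all lines alike.

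The upstream sequences of these genes were also alike. RefSeq windows of 250 bases before to 50 bases after the annotated start (build GRCm38.p6) were given for 44 of the 58 genes, among them Usp17la to Usp17ld. For Usp17lc the RefSeq start lies inside the GENCODE span given above, so its window is upstream of another annotated start. The same stretch of 80 bases from the 4 windows is shown because the windows were alike there. Capitals mark TATAAA, which was searched on both strands.
Usp17la, chr7:104856935-104857014 (plus): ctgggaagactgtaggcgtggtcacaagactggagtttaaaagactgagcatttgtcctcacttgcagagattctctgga
Usp17lb, chr7:104842570-104842649 (minus): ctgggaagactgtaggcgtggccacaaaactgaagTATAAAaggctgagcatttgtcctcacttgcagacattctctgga
Usp17lc, chr7:103416573-103416652 (plus): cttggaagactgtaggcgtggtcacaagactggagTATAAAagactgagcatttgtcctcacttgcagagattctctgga
Usp17ld, chr7:103252571-103252650 (minus): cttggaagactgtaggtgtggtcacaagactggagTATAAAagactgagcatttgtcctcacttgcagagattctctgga
TATAAA was present in the windows of Usp17lb, Usp17lc and Usp17ld, and among the other Usp-named genes in those of Usp19 and Usp40. Counted from the RefSeq start, the match shown began at -31 for Usp17lb, -88 for Usp17lc and -110 for Usp17ld. TATAAA is therefore not at a common distance from the annotated starts. The motif was present in 13.6% of all 32851 promoter windows. A match is a description of these letters only.

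Expression is given in TPM, the share of a transcript in its column after scaling by gene length, with each column summing to 1000000. Multiplied by the exon length in GENCODE M21, 98.8% of the values under 2000 reads in each column were whole multiples of the value of 1 read, to within 0.02 of a read. The reads behind each value could therefore be read back, and a column held between about 19995100 and 29376900 reads in the matched genes. They are used below for exact intervals (95%), which cover counting error only and not differences between cultures. Fold changes were computed on log2(TPM + 0.1), a scale on which changes of genes near the pseudocount come out too small. A mean of at least 0.5 TPM over the 3 lines was passed by 19950 genes. Among them were 52 Usp-named genes, 2 of the Usp17l genes and 50 others. Usp17la, Usp17lc, Usp17ld, Usp26, Usp29 and Usp9y were below it.

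All 5 target genes were low in the control and lower in both knockdown lines. Usp17le was the highest of them, with 0.151 and 0.0637 TPM in KD4 (3 reads and 1 read), 0.331 and 0.374 TPM in KD9 (8 and 8 reads) and 1.82 TPM in the control (37 reads). Usp17lb had 0.128 and 0.325 TPM in KD4 (2 and 4 reads), 0.421 and 0.238 TPM in KD9 (8 and 4 reads) and 1.12 TPM in the control (18 reads). For both genes each knockdown column was below the control. By the mean of the columns, KD4 was the lower knockdown line for both. Both KD9 columns were above both KD4 columns for Usp17le, while the columns of the lines overlapped for Usp17lb.

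The 3 genes below the filter had the same arrangement. Usp17la had 0.189 and 0.0477 TPM in KD4 (5 reads and 1 read), 0.248 and 0.0700 TPM in KD9 (8 and 2 reads) and 0.661 TPM in the control (18 reads). Usp17lc had 0.0817 and 0.155 TPM in KD4 (2 and 3 reads), 0.302 and 0 TPM in KD9 (9 and 0 reads) and 0.715 TPM in the control (18 reads). Every knockdown column was again below the control, and the columns of KD4 and KD9 overlapped for both genes. Usp17ld was the lowest of the family, with 0.101 and 0 TPM in KD4 (2 and 0 reads), 0.207 and 0 TPM in KD9 (5 and 0 reads) and 0.343 TPM in the control (7 reads). By a limit of 3 reads, the 0 reads of Usp17ld allow up to 0.191 TPM in the KD4 column and 0.14 TPM in the KD9 column, and those of Usp17lc up to 0.114 TPM.

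**Figure D1:**
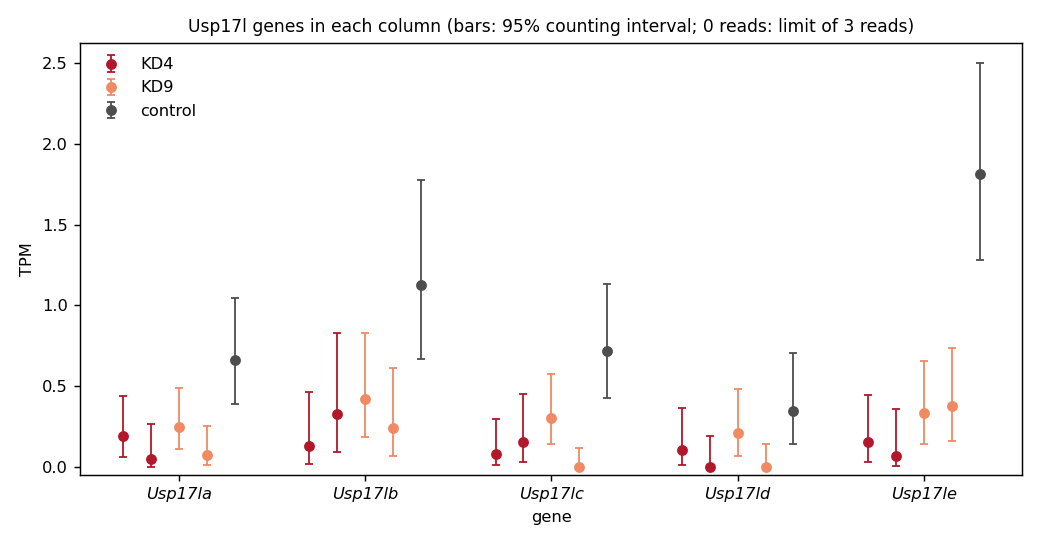
TPM of the 5 Usp17l genes in each column of KD4, KD9 and the control, with 95% exact Poisson counting intervals (for 0 reads, the limit of 3 reads). Usp17le stands at 1.82 TPM in the control and at or below 0.374 TPM in every knockdown column.

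Summed over the 5 Usp17l genes, KD4 had 14 and 9 reads, KD9 had 38 and 14 reads and the control had 98 reads. The summed level was 13.5% of the control in KD4 (exact 95% interval, 8.16% to 21.4%) and 23.8% in KD9 (16.6% to 33.6%). For Usp17le it was 6.2% in KD4 (1.61% to 17.3%) and 19.4% in KD9 (10.1% to 35.7%). Usp17la, Usp17lb and Usp17lc were between 15.9% and 19.1% of the control in KD4 and between 22.4% and 29.8% in KD9, and none of these intervals reached 100%. For Usp17ld the level was 16.4% in KD4 (1.66% to 86.1%) and 32.0% in KD9 (8.0% to 117%), so that in KD9 a difference was not detectable at this depth. KD4 held 56.7% of the summed Usp17l level of KD9 (33.1% to 94.3%). The 2 columns of KD9 themselves differed, with summed levels of 1.51 and 0.683 TPM, against 0.651 and 0.591 TPM in KD4. The interval for KD4 over KD9 pools the columns and does not cover this spread, so it is no test of the lines.

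The markers of 2-cell-like cells, a rare state of ESCs in which Usp17l is transcribed, were low beside the targets. Of the 9 listed markers, 6 passed the filter and were lower by over 2-fold in KD4 and in KD9, against 3.2% of all genes. These are genes of low level that are highest in the control, so they could pass the filter through the control, and the count is a description only. The summed level of all 9 was 1.58 TPM in KD4, 2.83 TPM in KD9 and 13.9 TPM in the control. Tcstv1, below the filter, was at 0 TPM in both KD4 columns and at only 0.139 TPM in the control. Zfp352, also below the filter, had 0.108 and 0.0409 TPM in KD9 and 0.0857 TPM in the control, so 1 KD9 column was above the control. The part of such cells in the Usp17l levels was not tested. Fewer cells of that state and less RNA per cell cannot be told apart in bulk RNA.

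Among the Usp-named genes above the filter, few were more than 2-fold lower, and none was more than 2-fold higher. In KD4, 4 of the 52 above the filter were lower (7.69%, Usp17lb, Usp17le, Usp18 and Usp25), against 9.5% of all genes. None was higher, against 5.18%. In KD9, 3 were lower (5.77%, Usp17lb, Usp17le and Usp51), against 5.45% of all genes, and none was higher, against 4.21%. In both lines only Usp17lb and Usp17le were lower (3.85%), against 3.2% of all genes, and none was higher, against 2.47%. Among the 50 that were not targeted, 2 were lower in KD4 (4%, against 9.5% of all genes) and 1 in KD9 (2%, against 5.45%). In both lines 0 of these 50 were lower, against 3.2%. These counts rest on 1 control column and have no test. The Usp17l genes passed the filter through the control alone, so their count says nothing beyond their values.

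Of the 50 other Usp-named genes, 43 were within 1.5-fold of the control in both lines. The share of all genes within that range was not computed, so this count is a description only. The columns of a line differed by a median of 0.05 on the log2 scale in KD4 and in KD9 alike. The median log2 fold change of these 50 was -0.02 in KD4, as over all genes (-0.02), and -0.17 in KD9, against -0.06 over all genes. 27 of them were lower in both lines by any amount and 6 were higher, where 38.2% of all genes were lower and 28.8% higher. After rescaling by median ratios, 17 were lower (34.0%) and 14 higher (28.0%), against 33.4% and 33.6% of all genes, so this split depended on the scaling. Another 14 were higher in KD4 and lower in KD9, against 18.8% of all genes, and 3 the reverse, against 14%. After the rescaling these were 12, against 16.0% of all genes, and 7, against 16.9%. Counting only genes whose columns of a line lay on 1 side of the control, 9 were above it in KD4 and below it in KD9, against 11.8% of all genes, and 1 was the reverse, against 8.81%.

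**Figure D2:**
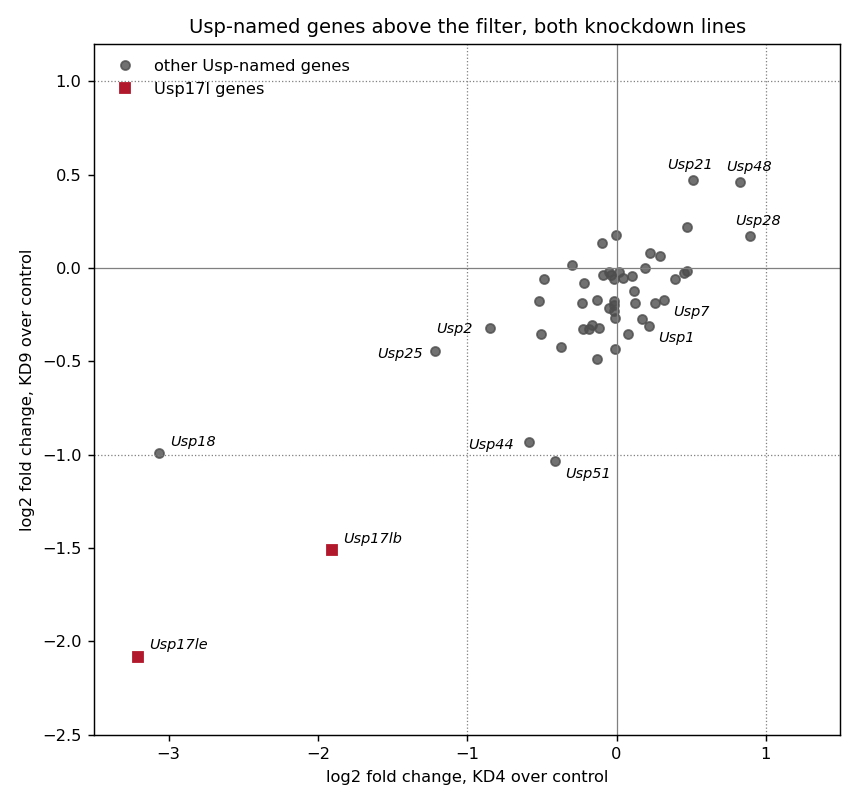
Log2 fold change in KD4 (horizontal) and in KD9 (vertical) over the control for the 52 Usp-named genes above the filter, with dotted lines at 2-fold. Usp17le and Usp17lb are past 2-fold in both lines, Usp18 and Usp25 in KD4 and Usp51 in KD9.

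With the 2 lines set against the control, limma called none of the 19950 genes and none of the 52 Usp-named genes (Benjamini-Hochberg adjusted p under 0.05), and the lowest adjusted p of a Usp-named gene was 0.859, for Usp17le. At an unadjusted p under 0.05 it took 506 genes as higher (2.54%) and 535 as lower (2.68%), of which Usp17le was the only Usp-named gene. This fit has 1 residual degree of freedom. Where each column was taken as its own library, limma called 3 Usp-named genes higher in the average of the lines (Usp21, Usp28 and Usp48), against 3.91% of all genes, and 5 lower (Usp18, Usp22, Usp25, Usp44 and Usp47), against 6.94%. In KD4 alone it called 6 of the 52 higher (Usp7, Usp10, Usp21, Usp28, Usp48 and Usp54), against 8.37% of all genes, and 7 lower (Usp17le, Usp18, Usp22, Usp25, Usp44, Usp46 and Usp47), against 12.2%. In KD9 alone it called none higher, against 1.99%, and 3 lower (Usp18, Usp22 and Usp44), against 3.11%. Those p-values measure the spread between columns of 1 line, which may be technical, and the single control column is assumed to vary like them. Each line is 1 labelled sample, so neither these calls nor those of KD4 against KD9 below are a test over samples.

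Usp18 had the widest change among the genes that were not targeted. It codes for the protease that removes the ubiquitin-like protein Isg15, is induced by interferon and restrains interferon receptor signalling. It lies at chr6:121245906-121270917 on the plus strand. Usp18 had 21.3 and 24.2 TPM in KD4 (593 and 532 reads), 97.8 and 94.3 TPM in KD9 (3319 and 2830 reads) and 191 TPM in the control (5463 reads). The 3 lines did not overlap, with KD4 lowest. Over the control this was -3.06 on the log2 scale for KD4 and -0.99, just short of 2-fold, for KD9. With each column as a library, limma gave an adjusted p of 0.00346 in KD4, 0.0384 in KD9 and 0.00360 for the difference of the lines. In KD4, 18 other Usp-named genes were above Usp18, in KD9 1 was, and in the control none was.

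Usp25, linked to signalling by cytokines and NF-kB, followed the same order of lines with a smaller range. It had 11.6 and 11.3 TPM in KD4, 18.8 and 20.4 TPM in KD9 and 26.7 TPM in the control, a log2 fold change of -1.21 and -0.44. Usp25 was called lower in KD4 by the fit over columns (limma, adjusted p = 0.00754) and not in KD9 (adjusted p = 0.0688). Usp15, which acts on the TGF-beta and NF-kB pathways, had 13.8 and 15 TPM in KD4, 13.3 and 12.8 TPM in KD9 and 16.1 TPM in the control, and was called in neither line.

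Other interferon genes and feeder markers were lower in KD4 beside Usp18. Of 16 listed interferon-stimulated genes, 16 were more than 2-fold lower in KD4 (list median -3.23 on the log2 scale), against 9.5% of all genes. In KD9 3 were (list median -0.45), against 5.45%. Isg15, whose conjugation Usp18 reverses, had 125 and 139 TPM in KD4, 676 and 702 TPM in KD9 and 772 TPM in the control. Of 12 fibroblast markers, 11 were more than 2-fold lower in KD4 and none in KD9, against the same shares of all genes. In KD9 4 were higher, 2 of these by over 2-fold (Dcn, 1.27 on the log2 scale, and Lum, 2.57), against 4.21% of all genes. The 12 had a summed level of 1049 TPM in KD4, 3199 TPM in KD9 and 4350 TPM in the control. Among them Col1a1, a collagen chain that defines fibroblasts, had 182 and 184 TPM in KD4, 767 and 760 TPM in KD9 and 1198 TPM in the control, and no marker was at 0 in any column. The 10 ESC markers had a summed level of 6764 TPM in KD4, 5131 TPM in KD9 and 4789 TPM in the control. The part of feeder RNA in the levels of Usp18, Usp25 and the other genes was not tested.

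**Figure D3:**
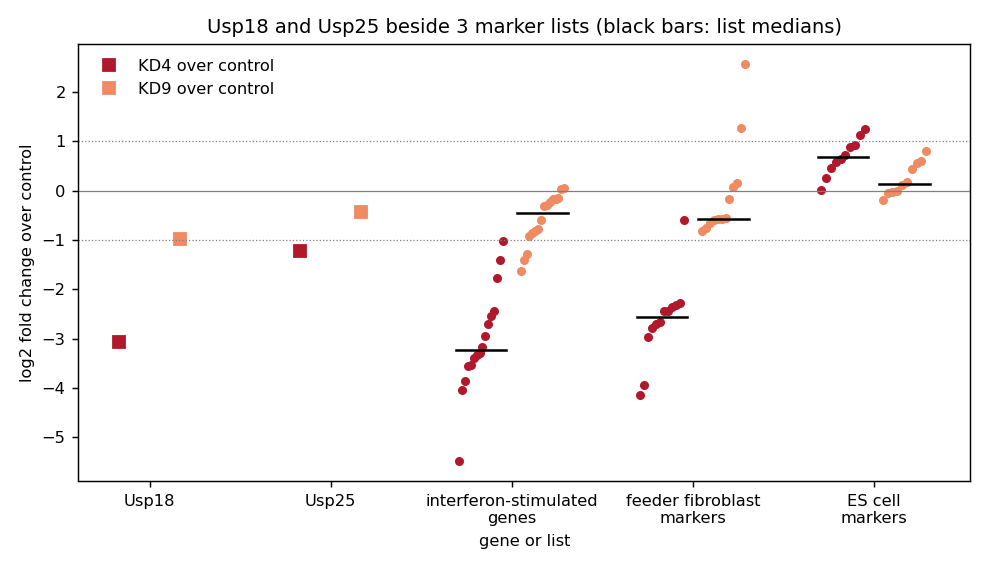
Log2 fold change over the control in KD4 and KD9 for Usp18 and Usp25 (squares) and for interferon-stimulated genes, feeder fibroblast markers and ESC markers (dots, with black bars at the medians). In KD4 Usp18 stands at -3.06, beside medians of -3.23 for the interferon list and -2.56 for the fibroblast list. In KD9 it stands at -0.99, below the medians of both lists (-0.45 and -0.57).

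The deubiquitinases of histone H2A and H2B formed a list of 9, all above the filter. Ubiquitinated H2A is among the histone marks the study followed in Usp17l knockdown ESCs, beside methylated H3. On the log2 scale the list median over the control stood at -0.22 for KD4 and -0.19 for KD9. Usp48, described further on, also acts on H2A but is not in the list, and with it the medians would be -0.07 for KD4 and -0.13 for KD9. In the list of 9, 2 were higher (22.2%) and 5 lower (55.6%) in both lines by any amount, against 28.8% and 38.2% of all genes. After rescaling, 3 were higher (33.3%) and 5 lower (55.6%), against 33.6% and 33.4% of all genes. The only one past 2-fold was Usp51, in KD9. Usp22, the H2B deubiquitinase of the SAGA complex, had 65.5 and 63.8 TPM in KD4, 62.2 and 63.0 TPM in KD9 and 83.8 TPM in the control. All 4 knockdown columns lay close together and below the control, and Usp22 was called lower in both lines by the fit over columns (limma, adjusted p = 0.0198 in KD4 and 0.0419 in KD9, log2 fold change -0.37 and -0.42). Usp44, a germline and stem cell gene whose product acts on H2B, had 8.33 and 7.6 TPM in KD4, 6.36 and 6.11 TPM in KD9 and 12 TPM in the control. It too was called lower in both lines (limma, adjusted p = 0.0372 in KD4 and 0.0419 in KD9), with log2 fold changes of -0.58 and -0.93, and here KD9 was the lower line.

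Usp21, which acts on H2A, was above the control in both lines, as was Usp49 of the same list by a smaller margin. It had 18.4 and 18.0 TPM in KD4, 18.1 and 17.3 TPM in KD9 and 12.7 TPM in the control, a log2 fold change of 0.51 and 0.47. The 2 lines were almost level, and the call passed in KD4 (limma over columns, adjusted p = 0.0216) but not in KD9 (adjusted p = 0.0520). Usp16, the H2A deubiquitinase known from mitosis and from ESC differentiation, had 11.3 and 10.9 TPM in KD4, 11.4 and 11.5 TPM in KD9 and 13.0 TPM in the control. Usp3, which acts on H2A in the DNA damage response, had 8.97 and 8.69 TPM in KD4, 9.49 and 10.01 TPM in KD9 and 10.3 TPM in the control. Neither was called in either line, although all their knockdown columns were below the control.

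The other 4 of the histone list were Usp36, Usp27x, Usp49 and Usp51. Usp36, a nucleolar protease, had 37.0 and 36.8 TPM in KD4, 27.0 and 27.7 TPM in KD9 and 35.0 TPM in the control. Usp27x, an X-linked relative of Usp22, had 6.30 and 6.46 TPM in KD4, 4.81 and 4.46 TPM in KD9 and 4.83 TPM in the control. Both were above the control in KD4 and below it in KD9. Usp49, which acts on H2B, had 10.6 and 11.2 TPM in KD4, 9.30 and 9.30 TPM in KD9 and 8.88 TPM in the control. It was above the control in both lines and called in neither, and only 52.5% of its windows are unique. Usp51, another X-linked relative of Usp22, had 1.86 and 1.21 TPM in KD4, 1.08 and 0.844 TPM in KD9 and 2.08 TPM in the control. These are low values of 41 and 21 reads in KD4, 29 and 20 reads in KD9 and 47 reads in the control. By reads, Usp51 in KD9 was 46.7% of the control (exact 95% interval, 30.6% to 71.2%), and in KD4 it was 75.7% (51.0% to 113%), where a difference was not detectable at this depth. Its log2 fold change of -1.04 in KD9 was short of 2-fold after rescaling (-0.97), at a pseudocount of 0.5 (-0.82) or 1 (-0.65), and in the first column alone (-0.88).

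The proteases that act on p53, on Mdm2 or in the DNA damage response numbered 8, with a list median of 0.20 for KD4 and -0.04 for KD9 on the log2 scale. Usp28, which stabilises Myc and acts in the p53 response, had 51.1 and 48.6 TPM in KD4, 30.1 and 30.4 TPM in KD9 and 26.8 TPM in the control. It was the largest rise in KD4, with a log2 fold change of 0.89 (limma over columns, adjusted p = 0.00723), and in KD9 it stood at 0.17 (adjusted p = 0.159). Usp10, which deubiquitinates p53, had 53.8 and 51.8 TPM in KD4, 38.8 and 37.0 TPM in KD9 and 38.6 TPM in the control. It was called higher in KD4 only (limma over columns, adjusted p = 0.0220 in KD4 and 0.793 in KD9). Between the columns of KD4 and KD9 the adjusted p was 0.0112, which is no test over samples.

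Usp7, the protease of Mdm2 and p53, had the highest mean level of all Usp-named genes. It had 148 and 152 TPM in KD4, 108 and 106 TPM in KD9 and 120.1 TPM in the control. Usp1, which acts on Fancd2 and Pcna in DNA repair, had 103 and 97.2 TPM in KD4, 70.4 and 68.1 TPM in KD9 and 85.8 TPM in the control. For both genes the KD4 columns were above the control and the KD9 columns below it. With each column as a library, limma gave an adjusted p of 0.00793 for the difference between KD4 and KD9 in Usp7 and 0.00976 in Usp1. Usp47, linked to base excision repair, was below the control in both lines, with 21.7 and 21.4 TPM in KD4, 24.3 and 23.8 TPM in KD9 and 30.7 TPM in the control.

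The last 3 of the p53 list changed little. Usp24 had 33.2 and 32.0 TPM in KD4, 28.7 and 28.4 TPM in KD9 and 28.6 TPM in the control. Usp4 had 32.0 and 32.2 TPM in KD4, 31.2 and 28.9 TPM in KD9 and 31.1 TPM in the control. Usp42 had 12.4 and 13.5 TPM in KD4, 13.7 and 13.2 TPM in KD9 and 13.8 TPM in the control. Of these, the columns of Usp24 in KD4 stood above the other 3 columns, while the KD4 and KD9 columns overlapped for Usp42 and the control lay within the range of the knockdown columns for Usp4. None of the 3 was called against the control by limma over columns.

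**Figure D4:**
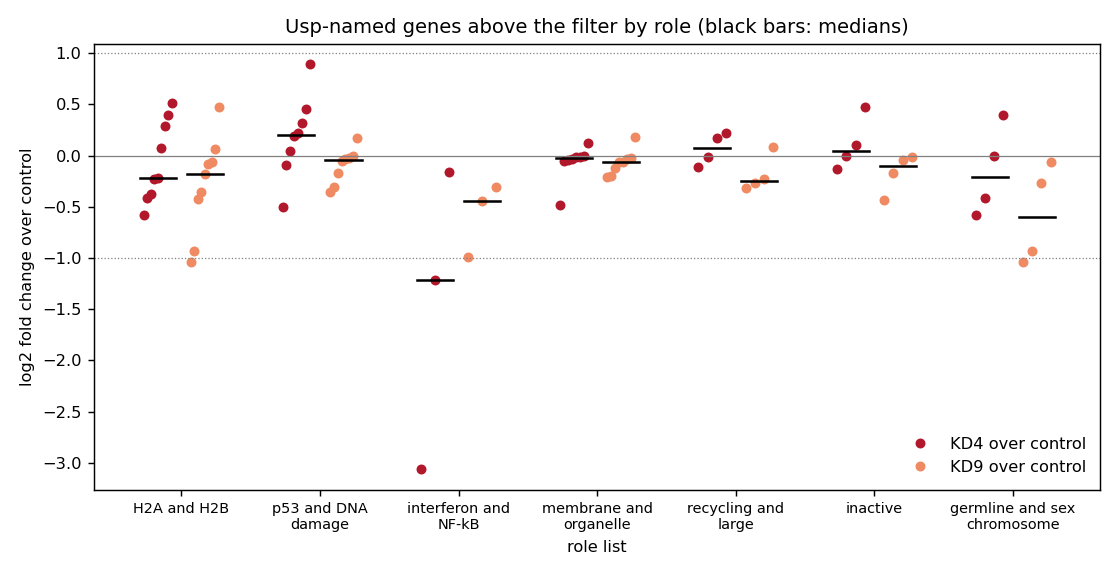
Log2 fold change over the control in KD4 and KD9 for the Usp-named genes above the filter, by role list, without the Usp17l genes, with black bars at the medians. Apart from the interferon and NF-kB list, the medians lie between -0.60 and 0.20, and Usp51, in the histone and the germline lists, is the only other gene past 2-fold.

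Across the whole set, 17 Usp-named genes were called higher in KD4 than in KD9 by the fit over columns, against 14.9% of all genes, and 3 were called lower (Usp18, Usp25 and Usp46), against 13.4%. The 17 were Usp1, Usp7, Usp9x, Usp10, Usp11, Usp14, Usp24, Usp27x, Usp28, Usp31, Usp32, Usp34, Usp36, Usp37, Usp38, Usp48 and Usp54. The ESC markers, with a list median of 0.68 for KD4 and 0.14 for KD9 on the log2 scale, and the feeder markers stood apart between the lines as well. The part of that difference in these calls was not tested.

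Usp48, a nuclear protease that also acts on H2A, was above the control in both lines. It had 89.6 and 82.9 TPM in KD4, 68.2 and 65.5 TPM in KD9 and 48.5 TPM in the control, with no overlap between the lines. Its log2 fold change was 0.83 in KD4 (limma over columns, adjusted p = 0.0112) and 0.46 in KD9 (adjusted p = 0.0577). Usp13, linked to autophagy, had 3.63 and 3.53 TPM in KD4, 3.07 and 2.90 TPM in KD9 and 2.55 TPM in the control, and was called in neither line. Usp2, a gene with circadian expression, lay below the control, with 3.02 and 2.84 TPM in KD4, 3.84 and 4.67 TPM in KD9 and 5.34 TPM in the control. In KD4 this was -0.85 on the log2 scale, with an adjusted p of 0.0515 (limma over columns).

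The proteases of ubiquitin recycling and the large family members were abundant. Usp5, which disassembles free ubiquitin chains, had 77.0 and 79.0 TPM in KD4, 73.9 and 67.8 TPM in KD9 and 66.9 TPM in the control. The proteasome-bound Usp14 was at 56.3 and 56.0 TPM in KD4, 48.0 and 49.1 TPM in KD9 and 56.9 TPM in the control. Usp9x, an X-linked gene required in early development, had 67.9 and 66.4 TPM in KD4, 48.1 and 50.7 TPM in KD9 and 59.6 TPM in the control. Only Usp5 was above the control in both lines, by 0.22 and 0.08 on the log2 scale, while Usp9x was above it in KD4 and below it in KD9. Usp34 was the fourth of this list, with log2 fold changes of -0.11 and -0.32, and Usp9x, Usp14 and Usp34 are among the 17 above.

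The 8 proteases of endosomes, the endoplasmic reticulum, mitochondria and other membranes ran from -0.48 to 0.12 on the log2 scale in KD4 and from -0.21 to 0.18 in KD9. Usp8, which acts on receptors in endosomes, had 62.0 and 62.2 TPM in KD4, 62.4 and 62.1 TPM in KD9 and 63.8 TPM in the control. Usp30 of the outer mitochondrial membrane had 14.1 and 15.8 TPM in KD4, 15.6 and 14.8 TPM in KD9 and 15.4 TPM in the control, and its columns overlapped. Usp46 was the exception in KD4, with 5.53 and 5.61 TPM in KD4, 7.29 and 7.72 TPM in KD9 and 7.83 TPM in the control (limma over columns, adjusted p = 0.0448 in KD4). The spans of Usp46os1 and Usp46os2 lie within that of Usp46 on the other strand. The default counting ignores strand and leaves out reads on exons of more than 1 gene. Whether exons of these genes overlap was not checked. The values of Usp46 and of both antisense genes are therefore uncertain and could lack reads. The same holds for Usp50 and Usp8, whose spans overlap.

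A list of 4 members, grouped beforehand as inactive from background knowledge, had medians of 0.05 in KD4 and -0.11 in KD9. Protease activity was not measured here, so the name of the list is not a result and may not hold for every member, Usp53 and Usp54 among them. Usp39, a splicing factor and one of the 5 highest members, had 79.8 and 78.3 TPM in KD4, 77.3 and 76.7 TPM in KD9 and 86.6 TPM in the control. Usp54 had 13.7 and 13.0 TPM in KD4, 9.41 and 9.55 TPM in KD9 and 9.60 TPM in the control, and was called higher in KD4 (limma over columns, adjusted p = 0.0331). Usp53, which is known for its part in hearing, had 4.42 and 4.53 TPM in KD4, 3.20 and 3.41 TPM in KD9 and 4.5 TPM in the control. Usp53 was called in neither line (limma over columns, adjusted p = 0.125 in KD9). Usp50 had 1.26 and 1.79 TPM in KD4, 1.54 and 1.2 TPM in KD9 and 1.41 TPM in the control.

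The germline genes Usp29, Usp26 and Usp9y were below the filter. Usp29, a gene of an imprinted region of chromosome 7, had 0.144 and 0.189 TPM in KD4 (26 and 27 reads), 0.132 and 0.180 TPM in KD9 (29 and 35 reads) and 0.437 TPM in the control (81 reads). By reads, Usp29 was 37.6% of the control in KD4 (exact 95% interval, 26.0% to 53.7%) and 35.4% in KD9 (25.1% to 49.7%). Every knockdown column was below the control, and the lines overlapped each other. The testis gene Usp26 had 8 and 3 reads in KD4, 9 and 4 reads in KD9 and 10 reads in the control. Usp9y on the Y chromosome had 1 read and 0 reads in KD4, 0 and 0 reads in KD9 and 1 read in the control, while its X-linked counterpart Usp9x had at least 7887 reads in every column.

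**Figure D5:**
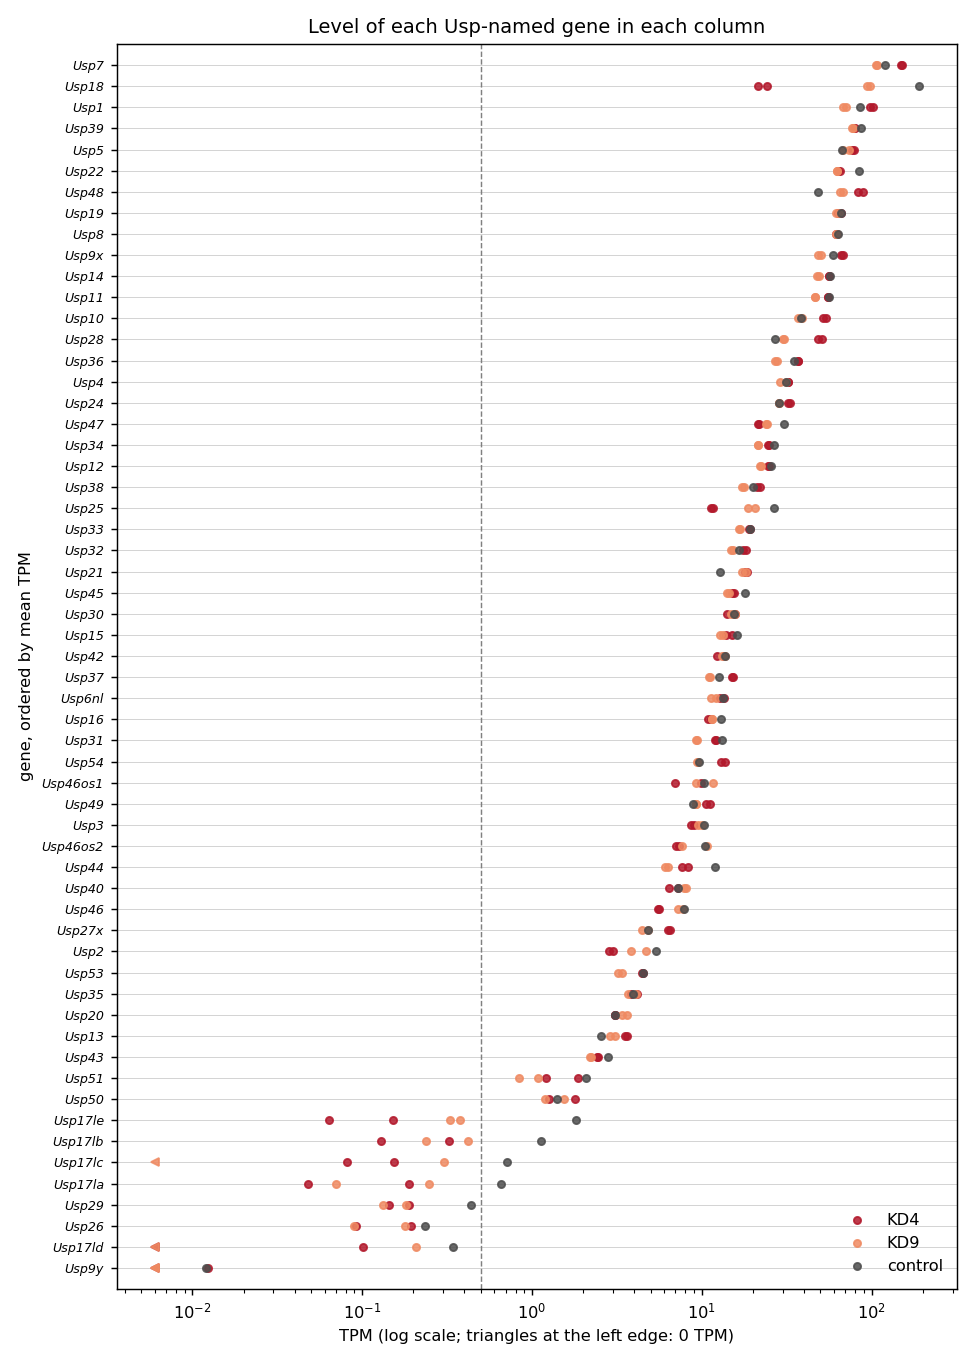
TPM (log axis) of the 58 Usp-named genes in each column of KD4, KD9 and the control, ordered by mean TPM, with a dashed line at 0.5 TPM. The members run from Usp7 at 106 TPM or more in every column to Usp9y at 0.0124 TPM or less, and the lines separate most for Usp18 and the Usp17l genes.

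Levels within the family spanned a wide range. 12 Usp-named genes had a mean of at least 50 TPM, 22 of 10 to 50 TPM, 18 of 0.5 to 10 TPM and 6 of under 0.5 TPM. All 58 together summed to 1459 TPM in KD4, 1325 TPM in KD9 and 1551 TPM in the control, and without Usp18 to 1436, 1229 and 1360 TPM in the same lines. Without Usp18, then, KD4 was above the control and KD9 below it. The 5 Usp17l genes made up 0.621 TPM of the sum in KD4, 1.10 TPM in KD9 and 4.66 TPM in the control.

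A list grouped beforehand as deubiquitinases outside the Usp names, mostly of the Otu, Uch, Josephin, Jamm and Mindy families, gave a like picture. Deubiquitinase activity was not measured here, so the name of this list may not hold for every gene in it. The list held 39 genes, all in the table and above the filter (5 further symbols were older names of Mindy1 to Mindy4 and Zup1), with list medians of -0.02 for KD4 and -0.12 for KD9 on the log2 scale. The Usp-named genes other than Usp17l had -0.02 and -0.17. In both lines 20 of the 39 were lower by any amount (51.3%, against 38.2% of all genes) and 5 higher (12.8%, against 28.8%). After rescaling, 15 were lower (38.5%) and 10 higher (25.6%), against 33.4% and 33.6% of all genes, so this split too depended on the scaling. One was more than 2-fold lower in both lines, Tnfaip3, which restrains NF-kB signalling. Tnfaip3 had 2.88 and 2.24 TPM in KD4, 6.48 and 6.88 TPM in KD9 and 13.9 TPM in the control, the order of lines seen for Usp18.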

How the data were processed

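The data are RNA-seq values of 3 labelled samples, KD4, KD9 and control. The authors used Trim Galore for trimming, HISAT2 for alignment to mm10 and featureCounts at default settings for unique reads, and deposited TPM values. For tool versions and annotation, nothing is given in the sources used here. The 2 columns of a knockdown line were averaged; 1 per-sample column fits no label and was left out. The labels give 1 sample a line; the paper calls its replicates biological where it states them, but whether these columns are separate cultures is not labelled, so p-values over columns may measure technical spread only.

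Reads were recovered as TPM times the exon length (GENCODE M21) over the smallest step, with ratio intervals from exact binomial limits. Fold changes used log2(TPM + 0.1), a mean TPM of at least 0.5 and a fold over 2 with no test. Knockdown was tested with limma 3.58.1 in R 4.3.3 (two-sided, trend, Benjamini-Hochberg adjusted over all 19950 genes, 3.01 prior degrees of freedom), tested first on simulated data. Python 3.11.15 was used. The genes named are the Usp17l genes, the 5 highest, the 5 per direction with the largest change in both lines, the 3 per direction that differ most between lines and the members of 4 role lists, with others by counts or as examples chosen after their values were seen. The members and lists were chosen with earlier results of these data known. Alternatives were other pseudocounts, filters, folds and scalings, the first column only and each column as a library.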

Additional observations from a re-analysis of the deposited data

Results flagged for a closer look

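Usp7 and Usp1 moved in opposite directions in the lines. Both KD4 columns were above the control and both KD9 columns below it, with a log2 difference of KD4 over KD9 of 0.49 for Usp7 and 0.53 for Usp1. The difference was not tested over samples, since each line is 1 labelled sample. Among the Usp-named genes above the filter, 9 were above the control in both KD4 columns and below it in both KD9 columns, against 11.8% of all genes, and 1, Usp40, showed the reverse, against 8.81%, with differences between 0.23 and 0.53 in size.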

How the results depend on the processing

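No paired analysis was possible because each line is 1 labelled sample and the control has 1 number. Lower members numbered 4 in KD4, 3 in KD9 and 2 in the 2 lines together. With a pseudocount of 1 or 0.5, 1 was lower in KD9 and 1 in both lines. With no filter, 8, 7 and 6 were lower in KD4, KD9 and both, and above a mean TPM of 5 there were 2, 0 and 0. With a fold over 1.5, 2 were higher in KD4 and 5 lower in KD9. The shares of all genes at these pseudocounts, filters and fold were not computed, so these counts are a description only. The members added without the filter, Usp17la, Usp17lc, Usp17ld and Usp29, had a mean under 0.5 TPM and were highest in the control. Leaving out 1 line gave 3 to 4 lower members (3 without KD4, 4 without KD9). The median log2 fold change of the Usp17l genes above the filter, -2.56 in KD4 and -1.80 in KD9, moved to -1.07 and -0.87 at pseudocount 1, to -1.55 and -1.2 at 0.5 and, over all 5 with no filter, -1.90 in KD4. limma called no gene under 6 of 7 alternatives; with each column as a library it called 781 genes higher and 1384 lower, and 3 and 5 members. The limma log2 fold change of Usp1, -0.04, was -0.31 without KD4 and 0.22 without KD9, and that of Usp7, 0.08, was -0.17 without KD4 and 0.32 without KD9. A limma test was not run without a line, since no residual degree of freedom is then left. Rescaling by median ratios was added for the counts by any amount after seeing the data. It gave 14 higher and 17 lower members in both lines, against 33.6% and 33.4% of all genes. Usp48 in the histone list was also added after seeing the data. The recovered depth leaves Usp17l at 0 to 9 reads per knockdown column, and the cause of these dependences was not tested beyond their construction.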
